A study of Mus musculus with 6 samples.

Results

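Cyr61, Ctgf, Ankrd1, Amotl2, Thbs1 and Lats2 are target genes of the transcriptional co-activator YAP that also respond to mechanical stress, and their mRNA was followed in single cells of mouse kidney and mammary tumor. The 6 genes were taken by their symbols, each of which named 1 of the 31053 genes in both count matrices, and no threshold on a measured value was used. Minced tissue had been digested with type I collagenase either in a microfluidic platform, in which recirculating fluid shears the tissue and from which cells were collected at successive intervals of 15 and 60 min, or for 60 min in a shaken tube that was then pipetted and vortexed, the control. Platform cells also made a single pass through a device of branching channels and nylon mesh filters, which control cells did not. The study states that all conditions of a replicate used tissue from the same mouse. Live cells that excluded SytoxBlue were sorted and loaded for droplet sequencing, which counts unique molecular identifiers (UMIs). Kidney came from 12-week-old male C57BL/6 mice. Tumors came from 10-week-old female MMTV-PyMT mice, in which a mammary tumor virus promoter drives the polyoma middle T oncoprotein in mammary epithelium. Each tissue and condition had 1 library, 6 in all, so no difference between conditions could be tested, and each interval given here is a 95% interval that covers counting error only.

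YAP and its relative TAZ bind TEAD factors at DNA and switch on genes for matrix proteins, growth and cytoskeleton. The Hippo kinases hold YAP in the cytoplasm by phosphorylating it. Stretch, stiff matrix, loss of cell contacts and some forms of fluid shear can bring YAP into the nucleus. Cyr61 (Ccn1) and Ctgf (Ccn2) encode secreted matricellular proteins of the CCN family and are induced quickly, Thbs1 encodes the secreted matrix protein thrombospondin-1, and Ankrd1 encodes an ankyrin repeat protein of the nucleus and sarcomere. Amotl2 and Lats2 act against YAP, the former as an angiomotin scaffold at cell junctions and the latter as a Hippo kinase. In the GRCm38 annotation Cyr61 lies at chr3:145646976-145649981 (minus strand), Ctgf at chr10:24595442-24598683 (plus strand), Ankrd1 at chr19:36111961-36120099 (minus strand), Amotl2 at chr9:102716672-102733418 (plus strand), Thbs1 at chr2:118111876-118127133 (plus strand) and Lats2 at chr14:57689662-57758388 (minus strand).

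RefSeq promoter windows of 250 bases before the start site (build GRCm38.p6) were found for 4 of the 6 genes, without Ctgf and Thbs1, under the symbol Ccn1 for Cyr61 and as 2 windows for Lats2. They were searched on both strands for the core of the TEAD site, GGAATG, for the AP-1 site TGANTCA and for the CArG box of serum response factor. The 3 windows below are shown because each holds the TEAD core, which stands in capitals, read as CATTCC where it lies on the other strand. The Cyr61 window is chr3:145649986-145650235 (minus strand), the Ankrd1 window chr19:36119845-36120094 (minus strand) and the Amotl2 window chr9:102717554-102717803 (plus strand). By the gene coordinates given above, only the Cyr61 window lies outside its gene. The windows of Ankrd1, Amotl2 and Lats2 stand before RefSeq start sites that lie inside the gene as annotated, and positions are counted from those sites.
Cyr61: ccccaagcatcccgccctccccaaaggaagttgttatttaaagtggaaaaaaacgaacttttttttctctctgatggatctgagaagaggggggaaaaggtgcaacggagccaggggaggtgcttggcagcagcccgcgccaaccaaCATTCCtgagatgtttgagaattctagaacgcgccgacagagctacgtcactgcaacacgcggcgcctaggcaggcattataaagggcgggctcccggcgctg
Ankrd1: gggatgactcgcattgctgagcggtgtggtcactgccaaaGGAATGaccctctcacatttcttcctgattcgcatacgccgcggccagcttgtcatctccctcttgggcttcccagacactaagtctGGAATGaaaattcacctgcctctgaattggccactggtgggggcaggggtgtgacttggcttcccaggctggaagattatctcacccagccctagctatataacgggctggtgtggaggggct
Amotl2: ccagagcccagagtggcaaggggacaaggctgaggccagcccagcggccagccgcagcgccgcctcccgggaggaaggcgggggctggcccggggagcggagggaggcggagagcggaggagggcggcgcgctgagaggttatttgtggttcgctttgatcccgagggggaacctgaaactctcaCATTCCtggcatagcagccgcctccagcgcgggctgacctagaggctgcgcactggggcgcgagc
The core starts at base -103 from the start site of Cyr61, at bases -210 and -123 of Ankrd1 and at base -65 of Amotl2. The same 6 letters occur in 4153 of the 32851 promoter windows of all genes, or 12.6%. Neither Lats2 window held them, and none of the 5 windows held the AP-1 site, found in 6.75% of all windows, or the CArG box, found in 1.47%. A match is a description of the letters in these windows.

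Total UMIs came to 69691783 for the kidney control, 116998401 for the 15 min and 112969440 for the 60 min kidney library, and to 90414805, 101222030 and 97006183 for the tumor libraries in the same order. Cells with 200 to 3000 genes in kidney or 4000 in tumor and at most 50% or 25% mitochondrial UMIs were kept, which left 5736 to 9936 cells a library. Kept cells were placed in 12 kidney and 9 tumor classes when they held at least 3 of a class's 8 marker genes and 2 more than of any unrelated class. Between the distal classes of the kidney tubule the highest count decided, without that lead. Tumor epithelial cells with at least 4 basal markers were called basal, even where they held as many luminal ones or more. These rules placed 90.7 to 98.2% of kept cells. Each class is called after its markers, as in endothelial-like. The share of cells at the minimum of 3 markers was 0.901% in kidney endothelial-like, 4.31% in proximal tubule-like and 2.25% in tumor luminal epithelial-like cells, but 18.1% in distal convoluted tubule-like and 27.1% in kidney stromal-like cells. Distal convoluted tubule-like cells held a median of 5 markers of their own and 3 of the best other class, and basal epithelial-like cells 5 of each. Luminal epithelial-like cells take in clusters 4 and 7, whose 10 leading genes hold 1 and 2 basal markers and 0 luminal ones, so that class is compared by cluster. Libraries of a tissue shared cell barcodes in 357 pairs in kidney and 57 in tumor, in 0.47 to 1.93% of the kept cells of a library, and leaving those cells out is among the alternatives. The median mitochondrial share of kept kidney cells was 20.4% in the 15 min library against 7.38% in the control and 8.59% in the 60 min library.

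Most Cyr61 in the kidney lay outside the kept cells. Cyr61 UMIs numbered 8533, 8128 and 23404 over all barcodes of the control, the 15 min and the 60 min library, and kept cells held 21.2, 11.8 and 21.4% of them. Barcodes over the gene limit, 1592, 2761 and 2677 in number, held 78.1, 88.1 and 78.1%. In the tumor the kept cells held 46.5, 48.0 and 48.2% of Cyr61 UMIs. The limit on genes was the study's and removes barcodes of high content, single cells and doublets alike. Values beyond it are given for Ankrd1 and for proximal tubule-like and endothelial-like cells of the kidney.

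Levels are given in CPM, the UMIs of a gene in every 1000000 UMIs of the same cells. Over all kept cells, Cyr61 stood at 53.6, 15.6 and 95.7 CPM in the kidney control, 15 min and 60 min libraries and at 315, 283 and 403 in the tumor. Both tissues had their highest Cyr61 in the 60 min platform library and their lowest at 15 min. Ctgf stood at 12.7, 4.12 and 34.7 in kidney and at 17.2, 24.98 and 74.4 in tumor, again highest at 60 min. Library totals mix cells of different classes in different numbers, so a change in makeup and a change within cells cannot be told apart in them. The classes below separate them as far as the gates go.

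**Figure D1:**
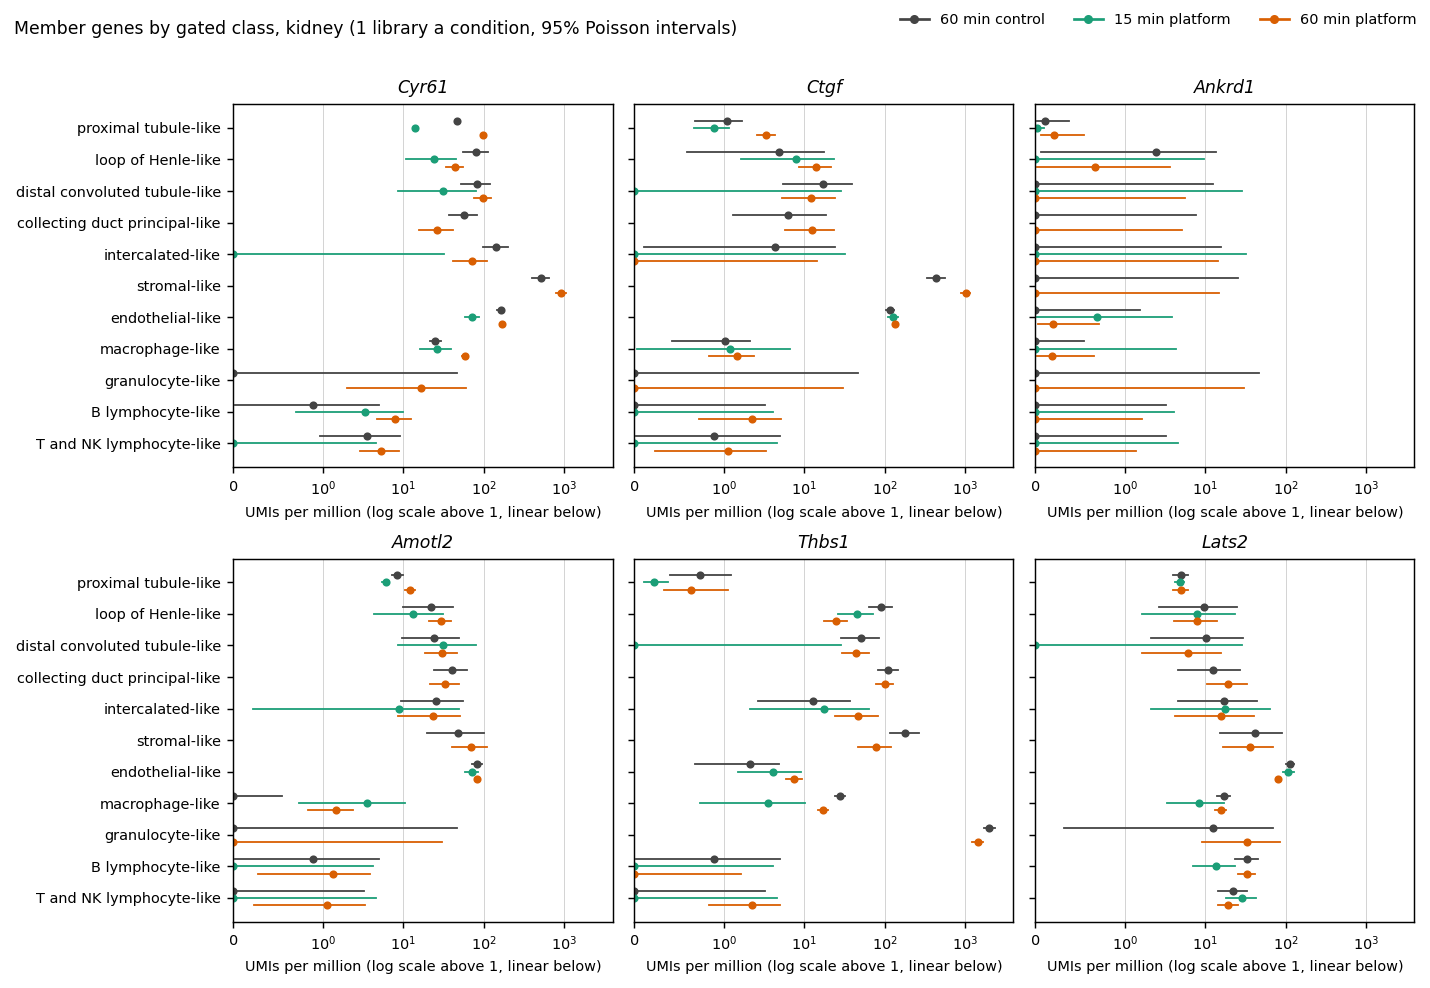
CPM of each of the 6 genes (x axis, log scale above 1 and linear below) in each kidney class of at least 20 cells (y axis), with points for the 60 min control (grey), 15 min platform (green) and 60 min platform (orange) libraries and bars for 95% Poisson intervals. Cyr61 and Ctgf are highest in stromal-like and endothelial-like cells, Thbs1 in granulocyte-like cells, at 2005 and 1433 CPM, and Ankrd1 is at or below 2.44 in every class.

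In the kidney the secreted CCN genes were highest in stromal-like and endothelial-like cells. Stromal-like cells, 26 in the control and 41 in the 60 min library, held Cyr61 at 513 and 919 CPM. Endothelial-like cells, 575, 377 and 2489 in number, held it at 163 (148 to 180) in the control, 72.3 (59.2 to 87.6) at 15 min and 170 (163 to 179) at 60 min. The range of the tubule class next in order, distal convoluted tubule-like at a median of 81.7, overlapped that of endothelial-like cells, and each later tubule class overlapped its neighbour, down to 41.6 in collecting duct principal-like cells. T and NK lymphocyte-like cells were at 3.56, 0 and 5.29. Thinned to 1000 UMIs a cell, 10.6, 5.66 and 10.9% of endothelial-like cells held Cyr61 (24.3, 14.1 and 27.9% unthinned, at medians of 4111, 3767 and 3831 UMIs), against 0.472, 0 and 1.18% of T and NK lymphocyte-like cells (1.41, 0 and 2.72% unthinned, at medians of 4928, 4929 and 4929 UMIs). The 0 came from 155 cells, which allows up to 1.94% of cells with a UMI at that thinned depth and sets no limit on cells that express the gene.

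Ctgf had the steeper step between classes. Stromal-like cells held 437 and 1016 CPM in the control and 60 min libraries, and endothelial-like cells 116, 127 and 133 in the control, 15 min and 60 min libraries. The next class, distal convoluted tubule-like, had a median of 12.2 and a range of 0 to 17.02. Proximal tubule-like cells were at 1.10, 0.891 and 3.35. Amotl2 was highest in endothelial-like cells at 83.2, 71.0 and 83.8 and followed the same fall through stromal-like (48.5 and 69.1), distal classes and proximal tubule-like cells (8.46, 6.06 and 12.2) to lymphocytes at or near 0.

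Lats2 kept another order. Endothelial-like cells led at 115, 108 and 81.6 CPM and stromal-like cells followed at 41.6 and 36.6, but B lymphocyte-like cells held it at 32.9, 13.5 and 32.9 and T and NK lymphocyte-like cells at 22.2, 28.4 and 19.3, above proximal tubule-like cells at 4.99, 4.83 and 4.95. Thbs1 was in granulocyte-like cells at 2005 (1707 to 2341) in the control, from 37 cells, and at 1433 (1227 to 1663) at 60 min, from 44 cells. Stromal-like (180 and 77.3), collecting duct principal-like (111 and 100.2) and loop of Henle-like cells (90.3, 45.2 and 25.2) followed, and endothelial-like cells held 2.09, 4.13 and 7.52. Ankrd1 came to 47 UMIs in kept kidney cells, and 39 of them, in 24 cells, lay in cluster 17, a group of 239 cells led by Mgp, Acta2, Dcn, Tagln and Rgs5, genes of smooth muscle and matrix-producing cells. That cluster was 60.3% stromal-like among its gated cells, while the stromal-like cells themselves held no Ankrd1 UMI. Beyond the gene limit the kidney libraries held 69, 56 and 319 Ankrd1 UMIs.

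The comparison between conditions gives how these mechanically responsive genes in each platform library differed from the standard digest. Device and digestion time cannot be told apart in it. The 15 min platform library had a shorter digest than the control. The later platform library held cells left after that collection, while the control was collected once. An effect of the device apart from digestion time was therefore not tested. A gene was counted as past 2-fold when the ratio of its CPM exceeded 2 in either direction and both libraries together held at least 50 of its UMIs in the class. Among endothelial-like cells, Cyr61 at 15 min had a log2 ratio to the control of -1.18 (-1.50 to -0.86), the 1 member past 2-fold of 4 that could be read. Over all genes of that comparison 1.2% were at least 2-fold higher and 2.54% lower. Ctgf differed by 0.13 (-0.14 to 0.41), Amotl2 by -0.23 (-0.59 to 0.12) and Lats2 by -0.08 (-0.38 to 0.21), intervals that all include 0. The median over the 4 members was -0.16 and over 7553 genes 0.13. The Cyr61 ratio ran from -1.25 to -1.14 under the alternatives tried.

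At 60 min the kept endothelial-like cells differed little from the control in Cyr61 and Amotl2. Cyr61 differed by 0.06 (-0.10 to 0.22), Ctgf by 0.20 (0.01 to 0.39), Amotl2 by 0.01 (-0.21 to 0.24) and Lats2 by -0.49 (-0.69 to -0.29). Of 5 members read, 1 passed 2-fold, Thbs1, from 5 UMIs in the control to 76, a log2 ratio of 1.85 (0.56 to 3.51), and 57.9% of the 76 lay in 10 cells. Passing genes made up 2.31% higher and 0.569% lower of all 10192, with a median of 0.002 against 0.06 over the 5 members. Thinned to 1000 UMIs the Thbs1 ratio was 0.53. Endothelial-like barcodes over the gene limit, 25, 20 and 134 in number, held Cyr61 at 288 (238 to 346), 139 (97.5 to 193) and 167 (149 to 187) CPM and Ctgf at 189 (149 to 236), 65.8 (38.3 to 105) and 70.8 (58.9 to 84.3), so that beyond the limit both platform libraries lay below the control in both genes. With all of them included the 60 min ratios were -0.09 for Cyr61 and -0.01 for Ctgf.

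Leiden clustering, run without the 6 members, split the endothelial cells mainly in 2, and values of a cluster here are over all its cells. Cluster 3, led by Esm1, Igfbp3 and Gpihbp1, held Cyr61 at 148, 65.2 and 138 CPM and cluster 11, led by Igf1, Fxyd6 and Bgn, at 224, 131 and 287. Both were lowest at 15 min, where the value of cluster 11 came from 22 cells and is given without an interval. Cluster 11 made up 121, 22 and 562 cells in the control, 15 min and 60 min libraries against 492, 381 and 1975 for cluster 3. Ctgf was likewise higher in cluster 11, at 150, 207 and 205 against 104, 109 and 113. Among thinned endothelial-like cells of the 60 min library, Ctgf was found in 30 of 265 cells with Cyr61 (11.3%) and 183 of 2177 without (8.41%).

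In proximal tubule-like cells, the reabsorbing epithelium and the most numerous class in each kidney library, Cyr61 was 46.5 (43.5 to 49.7) CPM in the control, 14.1 (13.1 to 15.1) at 15 min and 97.3 (92.9 to 102) at 60 min, from 2961, 7172 and 2866 cells. The 3 intervals do not overlap. The log2 ratio to the control was -1.72 (-1.86 to -1.58) at 15 min and 1.07 (0.95 to 1.18) at 60 min. The 60 min ratio was 0.94 in cells thinned to 1000 UMIs and 0.997 as the mean of single-cell values, both under 2-fold. At 15 min Cyr61 was the 1 of 4 members past 2-fold, where 0.33% of 10913 genes were higher and 1.37% lower. At 60 min Cyr61 and Ctgf, with a log2 ratio of 1.60 (0.87 to 2.39) from 21 and 63 UMIs, were higher, 2 of 4, where 4.68% of genes were higher and 0.152% lower. The Ctgf ratio ran from 1.01 to 1.81 under the alternatives. Its levels, 1.10 and 3.35 CPM in the control and at 60 min, were low. Macrophage-like cells held 1.04 and 1.45, T and NK lymphocyte-like cells 0.889 and 1.13, and B lymphocyte-like cells 0 and 2.22, the last from 5 UMIs. Amotl2 moved less than Cyr61, by -0.48 (-0.76 to -0.20) and 0.53 (0.23 to 0.83), and Lats2 by -0.05 (-0.39 to 0.31) and -0.01 (-0.44 to 0.42). Thinned to 1000 UMIs, which left Lats2 in 22 control and 8 cells of the 60 min library, the 60 min Lats2 ratio was -1.39, past 2-fold.

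Among kept proximal tubule-like cells, a small group carried most Cyr61 UMIs in the control and 60 min libraries, though not at 15 min. Clusters 14 (led by Snhg11, Pde4d and Mlxipl) and 15 (led by Pdk4, Cyr61 and F3) were singled out after their values had been seen, and together held 9.63, 2.05 and 12.5% of proximal tubule-like cells and 76.2, 41.8 and 84.97% of their Cyr61 UMIs. Within them Cyr61 stood at 411, 289 and 695 CPM. In the remaining proximal tubule-like cells it stood at 12.1 (10.5 to 13.9), 8.39 (7.64 to 9.19) and 16.6 (14.7 to 18.7). The 15 min value was 0.703 (0.615 to 0.803) of the control inside these clusters and 0.691 (0.586 to 0.818) outside them, against 0.304 for the whole class. Outside them cluster 7, led by hemoglobin genes, went the other way at 15 min, at 2.16 (1.06 to 4.85) times the control, while clusters 1, 2 and 6 were below it, at 0.598, 0.551 and 0.639, and the intervals of clusters 5 and 22 included 1. The 60 min value was 1.69 (1.54 to 1.85) times the control inside and 1.37 (1.14 to 1.65) outside. The values inside mix clusters 14 and 15 in different parts. Cluster 14 made up 56 of their 285 cells in the control, 138 of 147 at 15 min and 211 of 358 at 60 min. Within cluster 14 alone Cyr61 was 807, 294 and 786. Its 15 min value was 0.364 (0.312 to 0.425) of the control. Its 60 min value, at a log2 ratio of -0.04 (-0.21 to 0.14), was not apart from the control. In cluster 15 the 60 min value was 1.78 (1.52 to 2.08) times the control. Proximal tubule-like barcodes over the gene limit, 1255, 2585 and 1831 in number, held Cyr61 at 200, 143 and 403, in the same order, and with them included the 15 min ratio was -0.87. These barcodes held more Cyr61 UMIs than the kept cells of the class, 5197, 6883 and 15152 against 885, 792 and 1830.

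**Figure D2:**
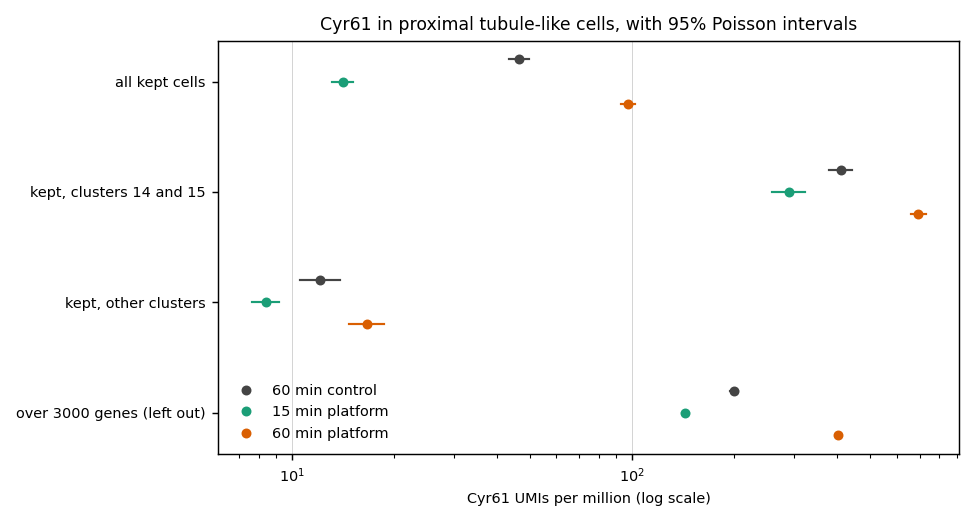
Cyr61 CPM (x axis, log scale) in proximal tubule-like cells of the kidney, for all kept cells, for kept cells inside and outside clusters 14 and 15, and for barcodes left out because they hold over 3000 genes, with 95% Poisson intervals. The 15 min platform library is lowest and the 60 min platform library highest in each of the 4 rows.

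Macrophage-like cells of the kidney held Cyr61 at 25.2 (21.5 to 29.2), 26.0 (16.3 to 39.4) and 58.4 (54.0 to 63.1) CPM, so that the 60 min library stood alone, with a log2 ratio of 1.22 (0.97 to 1.47). That was 1 of 3 members past 2-fold, against 2.26% of genes higher and 0.287% lower. With the level of the lowest class of each library subtracted as free RNA the log2 ratio was 1.13. Thbs1 in macrophage-like cells went from 187 UMIs in the control to 3 at 15 min and 187 at 60 min, or 27.7, 3.55 and 16.99 CPM, and its 15 min ratio was 0.128 (0.026 to 0.381). Lats2 was also past 2-fold there, from 115 to 7 UMIs, with a log2 ratio of -1.04 (-2.39 to 0.05) whose interval includes 0. That ratio ran from -1.80 to -0.41 over 10 alternatives and was under 2-fold in 5 of them. These were 2 lower of 3 members, where 4.29% of genes were higher and 5.25% lower. Thbs1 was concentrated in cluster 19, led by Chil3, Clec4e and Ifitm6, whose macrophage-like cells, 47, 19 and 60 in number, held it at 455, 16.7 and 270 CPM. In cluster 4, with most of the class, it was 6.16, 1.66 and 8.14, with a 60 min log2 ratio of 0.40 (-0.22 to 1.05) against -0.75 (-1.11 to -0.40) in cluster 19.

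Stromal-like cells of the kidney were too few at 15 min, 3 cells, to be read. At 60 min Ctgf was higher than the control by 1.22 (0.82 to 1.64) on the log2 scale and Cyr61 by 0.84 (0.46 to 1.24), 1 of 2 members past 2-fold where 5.8% of genes were higher and 2.86% lower. With clusters in place of gates these were 0.73 and 0.18. In loop of Henle-like cells Thbs1 was 90.3 in the control and 25.2 at 60 min, from 37 UMIs among 113 cells and 38 among 367, a log2 ratio of -1.84 (-2.54 to -1.15), the 1 of 3 members that passed 2-fold against 1.37% of genes lower. A single control cell held 19 of the 37. The ratio was -0.77 with a gate of at least 4 markers, -0.75 with clusters in place of gates and -0.69 without upper limits on cells, all under 2-fold.

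A set of 12 stress response genes that the study had selected to show singly, immediate early and heat shock genes among them and not independent evidence of a direction, kept the order of libraries that Cyr61 had in endothelial-like and proximal tubule-like cells. Their summed level in endothelial-like cells was 22923, 10747 and 23686 CPM, and 9 of the 12 were at least 2-fold lower at 15 min. Proximal tubule-like cells held 4148, 3312 and 4918, with 8 of 12 lower at 15 min and 5 higher at 60 min. In macrophage-like cells the sum was 16778, 15245 and 29055, with 5 of 12 higher at 60 min, and in stromal-like cells it was 26525 in the control and 20427 at 60 min, opposite in order to Cyr61. The mitochondrial share of proximal tubule-like UMIs was 14.5, 22.6 and 17.3%, and scaling to other UMIs moved the median log2 ratio of all genes there at 15 min by 0.145, with Cyr61 at -1.57. The same scaling moved that median by 0.176 and 0.115 in loop of Henle-like cells at 15 and 60 min, and by -0.204 and 0.115 in distal convoluted tubule-like cells, and by 0.174 in intercalated-like cells at 15 min. The part of stress genes or mitochondrial share in the Cyr61 values was not tested. In endothelial-like cells, of 11 Hippo kinases and adaptors read at 15 min and 12 at 60 min, none passed 2-fold in either direction, with medians of -0.10 and -0.14. Among YAP, TAZ and TEAD factors 5 and 6 were read and none passed. Of 6 other YAP target genes read at 15 min 1 was lower, Gadd45a, a gene of the response to DNA damage, at -1.10 (-1.67 to -0.55), named here after its value was seen.

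**Figure D3:**
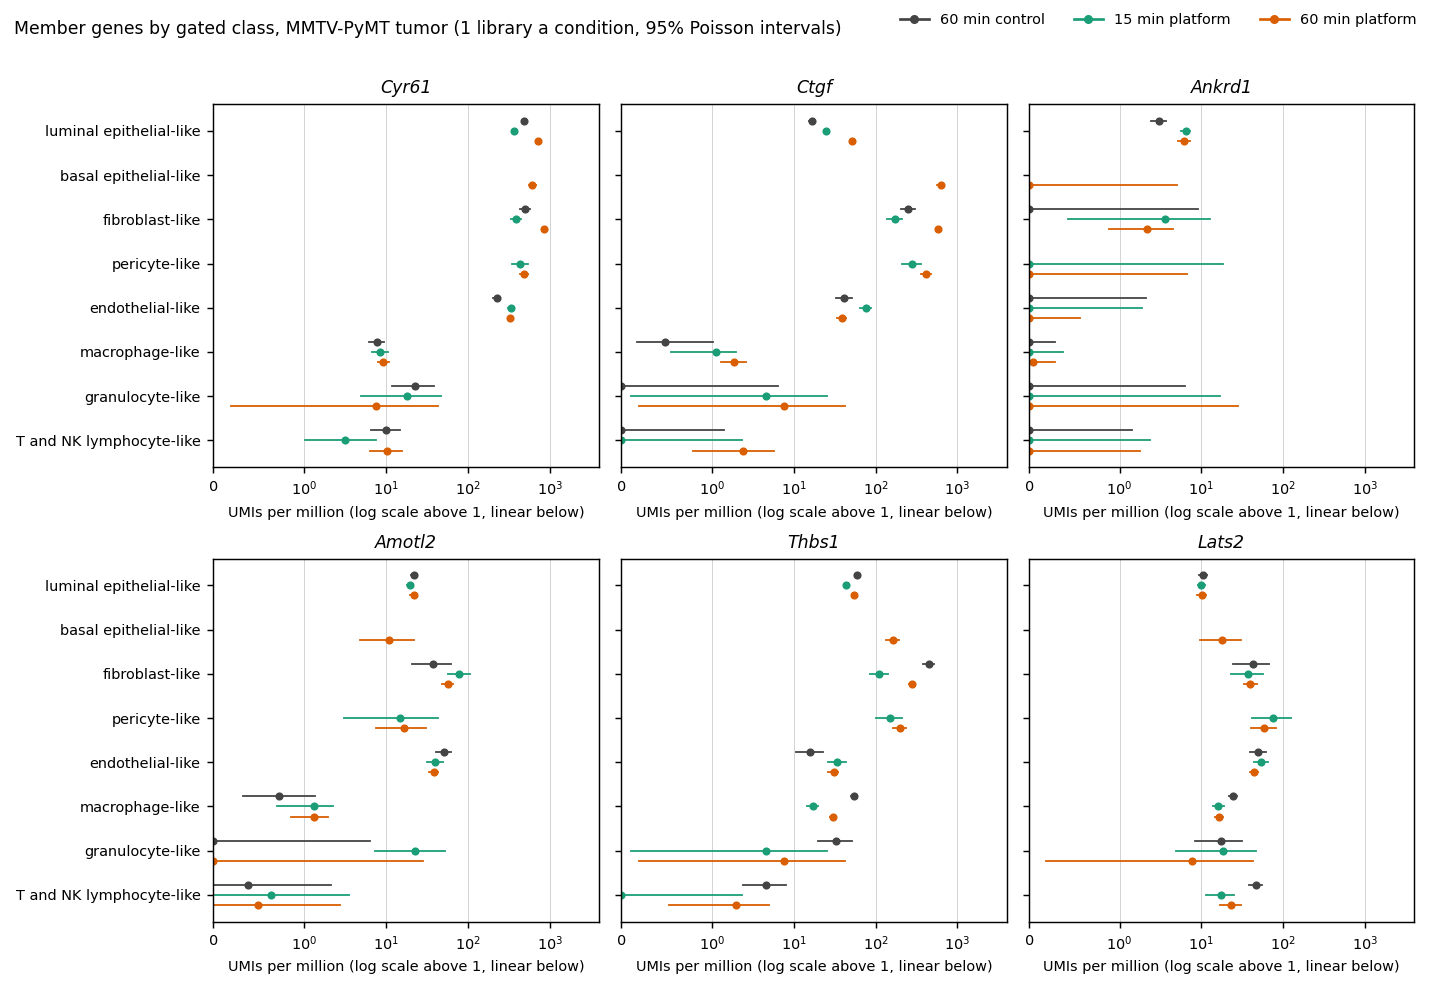
CPM of each of the 6 genes (x axis, log scale above 1 and linear below) in each tumor class of at least 20 cells in a library, with the same colours and 95% Poisson intervals. Cyr61 exceeds 200 CPM in luminal, basal, fibroblast-like, pericyte-like and endothelial-like cells and is at or below 22.4 in the 3 immune classes, and Ankrd1 is detected above 1 CPM in luminal epithelial-like and fibroblast-like cells only.

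In the tumor Cyr61 was spread over every class that was not an immune one. Its medians over libraries of at least 20 cells of a class were 500 in fibroblast-like, 478 in luminal epithelial-like and 461 CPM in pericyte-like cells, whose ranges overlapped, then 323 in endothelial-like cells, whose range lay below. Basal epithelial-like cells, outside that order because they reached 20 cells in the 60 min library alone, held 324 (230 to 445), 198 (128 to 292) and 610 (555 to 670). Macrophage-like cells were at 7.66, 8.48 and 9.25 and T and NK lymphocyte-like cells at 10.0, 3.18 and 10.2. Thinned to 1000 UMIs, 23.7, 19.2 and 32.1% of luminal epithelial-like cells held it (50.6, 45.9 and 62.3% unthinned, at medians of 8249, 9774 and 9203 UMIs), against 0.993, 0 and 0.59% of T and NK lymphocyte-like cells (5.18, 2.16 and 5.83% unthinned, at medians of 8135, 6226 and 5049 UMIs). Here 0 came from 229 cells, which allows up to 1.31% with a UMI at the thinned depth.

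Ctgf marked the contractile and matrix-producing cells. Basal epithelial-like cells, 12, 14 and 80 in number, held 726, 586 and 624 CPM, pericyte-like cells, 18, 31 and 78, held 287, 278 and 415, and fibroblast-like cells, 40, 69 and 297, held 251, 170 and 585. Endothelial-like cells were at 41.4, 75.5 and 38.3 and luminal epithelial-like cells at 16.6, 24.6 and 51.9. Among classes of at least 20 cells Thbs1 was highest in fibroblast-like cells at 447, 110 and 276 and in pericyte-like cells at 194, 149 and 197. It was low in tumor granulocyte-like cells, at 32.7, 4.53 and 7.63, where the kidney class of that name stood at 2005 and 1433. Amotl2 was led by fibroblast-like (37.3, 78.1 and 56.6) and endothelial-like cells (50.5, 40.1 and 38.5), whose ranges overlapped. Lats2 was led by pericyte-like cells, at 74.4 and 58.3 in the platform libraries, followed by endothelial-like cells at 49.4, 53.9 and 44.2, and was lowest in luminal epithelial-like cells at 10.4, 10.0 and 10.1.

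Luminal epithelial-like cells, one of the epithelial classes of this tumor, held Cyr61 at 478 (470 to 486) in the control, 363 (357 to 369) at 15 min and 712 (702 to 723) at 60 min. As in the kidney, the 15 min library was lowest and the 60 min library highest, with log2 ratios of -0.40 (-0.43 to -0.37) and 0.58 (0.54 to 0.61). Neither reached 2-fold. In the whole class Ctgf had log2 ratios of 0.57 (0.41 to 0.72) and 1.64 (1.49 to 1.79), and Ankrd1 of 1.09 (0.74 to 1.45) and 1.03 (0.64 to 1.42). The counts were 1 higher of 6 at 15 min, where 1.46% of genes were higher and 2.4% lower, and 2 higher of 6 at 60 min, where 1.39% were higher and 0.801% lower. Without clusters 4 and 7, Ctgf stood at 2.09, 3.92 and 13.5 CPM, with ratios of 0.91 (0.44 to 1.39) and 2.69 (2.26 to 3.13), Cyr61 kept ratios of -0.40 (-0.44 to -0.37) and 0.47 (0.44 to 0.51), and Ankrd1 turned to -4.36 (-6.28 to -2.94) and -3.99 (-6.31 to -2.38), from 68, 4 and 3 UMIs. Of the 6 members 1 was then lower at 15 min, where 1.5% of genes were higher and 2.73% lower, and 1 higher and 1 lower at 60 min, where 0.855% were higher and 0.838% lower. In the whole class Thbs1 (59.0, 43.3 and 54.0), Amotl2 (21.7, 19.5 and 21.6) and Lats2 (10.4, 10.0 and 10.1 CPM) stayed under a ratio of 2.

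The luminal cells were not uniform. Cluster 6, led by Csf3, Hbegf, Klf5 and Fosl1, held 46.6, 17.02 and 36.1% of their Cyr61 UMIs from 630, 189 and 391 cells. Luminal epithelial-like cells fell mainly into 7 clusters, and Cyr61 was higher at 60 min than in the control in each of them, with log2 ratios from 0.07 (-0.21 to 0.35) in cluster 16, an interval that includes 0, to 1.01 (0.89 to 1.14) in cluster 4. At 15 min the clusters differed in sign. Cyr61 was above the control in cluster 6 (900 and 1061 CPM), in cluster 3, led by Scgb2b27 (327 and 350) and, by less than counting error, in cluster 1, led by Npy (269 and 275). It was below the control in clusters 7 (890 and 617), 10 (654 and 467) and 16 (237 and 72.6) and, by less than counting error, in cluster 4 (249 and 238). Ctgf was highest in the 2 clusters with basal markers among their leading genes. Among luminal epithelial-like cells, cluster 7, led by the basal keratins Krt5 and Krt14, held it at 110, 76.2 and 192 CPM and cluster 4, led by kallikreins, at 104, 131 and 185, against 28.4 or less in the other 5. Cluster 7 made up 3.18, 4.13 and 12.2% of the class and 18.9, 10.5 and 41.5% of its Ctgf UMIs. At 60 min Ctgf was above the control in cluster 7 by 0.80 (0.49 to 1.13), in cluster 4 by 0.83 (0.63 to 1.03), in cluster 6 by 3.08 (2.46 to 3.74), in cluster 1 by 2.77 (1.80 to 3.89) and in cluster 3 by 2.17 (0.67 to 3.85), went from 1 to 21 UMIs in cluster 16, and had an interval that included 0 in cluster 10. At 15 min the clusters differed in sign, with ratios of -0.53 (-0.94 to -0.11) in cluster 7 and -1.87 (-3.74 to -0.23) in cluster 10, of 0.33 (0.15 to 0.51) in cluster 4, 2.61 (1.88 to 3.36) in cluster 6 and 2.28 (1.03 to 3.81) in cluster 3, and of 0.81 (-0.23 to 1.99) in cluster 1.

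Ankrd1 in the tumor lay in few cells, and its direction depended on the cluster. Cluster 4 held 421 UMIs, 82.9% of those in kept tumor cells, in 76 of its 1677 cells, and 1 cell held 86. Luminal epithelial-like cells held 94, 253 and 148 UMIs in 19, 45 and 25 cells, and the 10 highest cells of each library held 90.4, 81.4 and 88.5% of them. The mean of single-cell values gave log2 ratios of 0.67 and 0.32 at 15 and 60 min, and without cells whose barcodes recur in another library they were 1.49 and 1.43. With clusters in place of gates the 60 min ratio was 0.98, under 2-fold. Luminal epithelial-like cells of cluster 4 held 26, 249 and 145 of the UMIs, at 7.45, 44.1 and 56.2 CPM, and those outside clusters 4 and 7 held 68, 4 and 3. Cluster 6 held 39 of the control UMIs, 23 of them in 1 cell. No Ankrd1 UMI was found among 1374 tumor endothelial-like cells.

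Tumor endothelial-like cells, 324, 256 and 794 in number, held Cyr61 at 226 (204 to 249), 333 (308 to 360) and 323 (309 to 337) CPM. Both platform libraries were above the control, by 0.56 (0.38 to 0.75) and 0.52 (0.36 to 0.67) on the log2 scale, and their intervals overlapped one another. Thbs1 was also higher in both, at 15.9, 33.9 and 30.6, with log2 ratios of 1.09 (0.44 to 1.79) and 0.95 (0.37 to 1.57). Thinned, the 15 min ratio was 0.80, under 2-fold, while the 60 min ratio passed 2-fold under 4 of 10 alternatives, up to 1.35. Ctgf had a ratio of 0.87 (0.45 to 1.29) at 15 min and of -0.11 (-0.50 to 0.28) at 60 min, and 74.8% of its 15 min UMIs lay in 10 cells. Amotl2 was at 50.5, 40.1 and 38.5, with ratios of -0.33 (-0.79 to 0.12) and -0.39 (-0.75 to -0.03). At 15 min 1 of 5 members was past 2-fold, higher, where 1.19% of genes were higher and 1.59% lower. At 60 min 0 of 5 were, where 1.17% were higher and 1.59% lower. The sum of the stress genes was 12725, 11173 and 18587 CPM, with 3 of 12 lower at 15 min and 1 higher at 60 min, and their part in the member values was not tested.

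**Figure D4:**
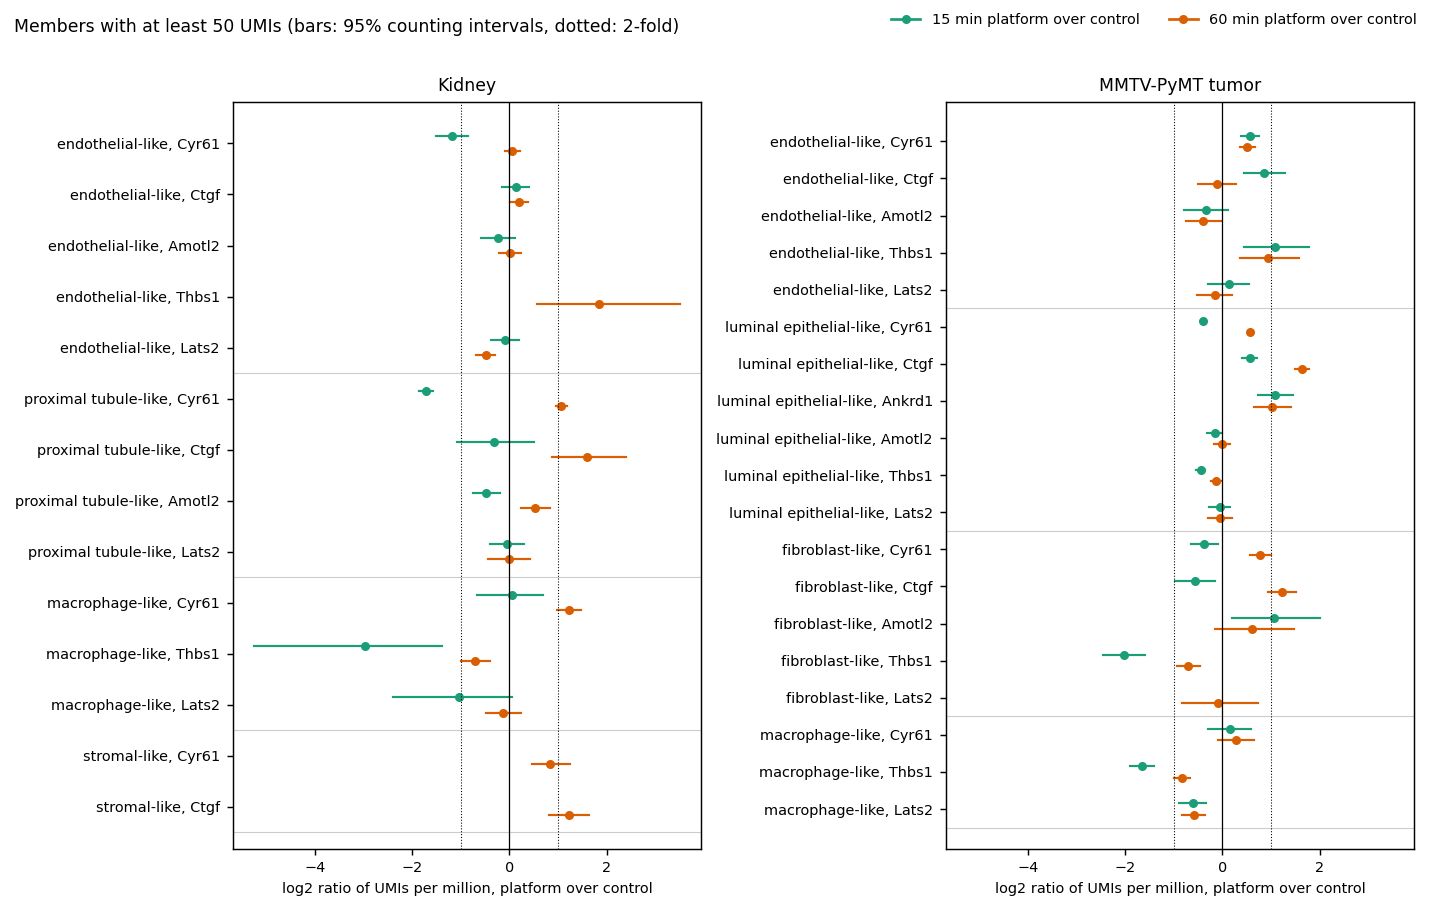
Log2 ratios of CPM, platform over control (x axis), for members with at least 50 UMIs in 4 kidney and 4 tumor classes, with 95% counting intervals, at 15 min (green) and 60 min (orange), dotted lines at 2-fold. Cyr61 at 15 min lies at -1.18 in kidney and at 0.56 in tumor endothelial-like cells, and Ctgf at 60 min lies above 1 in proximal tubule-like, stromal-like, luminal epithelial-like and fibroblast-like cells.

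Over the whole class, fibroblast-like cells of the tumor held the CCN genes above the control at 60 min, though not in each of its clusters. The class log2 ratios were 0.78 (0.57 to 0.99) for Cyr61 and 1.22 (0.93 to 1.52) for Ctgf. At 15 min they were -0.37 (-0.65 to -0.09) and -0.56 (-0.98 to -0.14). Thbs1 over the class was lower at both times, with ratios of -2.02 (-2.46 to -1.60) and -0.70 (-0.93 to -0.46). Amotl2 was higher at 15 min by 1.07 (0.19 to 2.02) from 15 and 44 UMIs. Thinned to 1000 UMIs, the 60 min Thbs1 ratio was 0.30 and the 15 min Amotl2 ratio -0.18, both of the opposite sign. The 15 min Thbs1 ratio was -0.77 when thinned, under 2-fold, the 15 min Amotl2 ratio 0.37 without upper limits on cells, and the 60 min Ctgf ratio 0.995 as the mean of single-cell values. At 15 min 1 of 4 members was higher and 1 lower, where 3.55% of genes were higher and 3.98% lower. At 60 min 1 of 5 was higher, where 10.8% were higher and 4.14% lower. The class was made of cluster 15, led by Thbs4, Mfap4, Col1a1 and Postn, and cluster 18, led by Clec3b, Efemp1 and Tnxb. Over all cells of a cluster, cluster 15 held Ctgf at 766, 470 and 766 CPM and cluster 18 at 77.7, 13.1 and 107. Cluster 15 had 17, 29 and 222 cells and cluster 18 had 24, 43 and 79. Cyr61 was 897, 493 and 903 in cluster 15 and 436, 337 and 724 in cluster 18. Thbs1 was 147, 92.2 and 266 in cluster 15 and 547, 115 and 290 in cluster 18. At 60 min Cyr61 was thus near the control in cluster 15 and above it in cluster 18. Ctgf was near the control in cluster 15. Its higher value in cluster 18 stood against 24 control cells and is given without an interval, so a rise of Ctgf there was not shown. Thbs1 was above the control in cluster 15 and below it in cluster 18. The class ratios mix these clusters in different numbers.

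Immune cells of the tumor were read for Thbs1 and Lats2. Macrophage-like cells held Thbs1 at 53.7 (49.7 to 57.9), 17.1 (14.6 to 19.8) and 30.1 (27.7 to 32.7) CPM, with log2 ratios of -1.65 (-1.91 to -1.41) and -0.84 (-0.999 to -0.67). Over the whole class these had the direction seen in kidney macrophage-like cells. The stress sum ran the other way, at 10851, 21668 and 20920, and its part was not tested. Of 3 members, 1 was past 2-fold at 15 min, where 8.91% of genes were higher and 4.2% lower, and 0 at 60 min, where 3.45% were higher and 1.94% lower. Lats2 in macrophage-like cells was 24.6, 16.1 and 16.3 CPM, with log2 ratios of -0.61 (-0.90 to -0.33) and -0.59 (-0.82 to -0.36). Only with free RNA subtracted did these pass 2-fold, at -1.23 and -1.18. Thbs1 was highest in cluster 8, led by Chil3, Lyz1 and Plac8, genes of monocytes, whose macrophage-like cells, 20.3, 8.93 and 14.01% of the class, held it at 198, 64.8 and 115, with ratios of -1.61 (-2.01 to -1.23) and -0.79 (-0.99 to -0.58). In cluster 2, with most of the class, it was 15.5, 13.0 and 17.6, and the intervals of both ratios, -0.25 (-0.65 to 0.14) and 0.19 (-0.13 to 0.51), included 0. T and NK lymphocyte-like cells held Lats2 at 46.2 (38.3 to 55.2), 17.2 (11.3 to 25.02) and 22.8 (16.8 to 30.4), with log2 ratios of -1.42 (-2.08 to -0.81) and -1.01 (-1.53 to -0.52), the 1 member that could be read there, where 3.28 and 2.5% of genes were at least 2-fold lower at 15 and 60 min. At 60 min the ratio was under 2-fold in 5 of 10 alternatives, from -0.94 to -0.75. Cluster 9, led by Xcl1 and Gzmb, made up 83.2, 77.5 and 54.5% of the class and cluster 14, led by Tnfrsf4 and Ctla4, 16.8, 22.5 and 45.2%. The 60 min ratio was -1.18 (-1.80 to -0.59) in cluster 9 and -0.35 (-1.71 to 1.17) in cluster 14. The median UMI count of those cells was 8135, 6226 and 5049. In these cells the stress sum was 6300, 8382 and 12188 CPM, higher in the platform libraries, and its part in the Lats2 values was not tested.

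Over all classes that could be read, members passed 2-fold in 4 of 12 kidney entries at 15 min and 6 of 23 at 60 min, and in 6 of 19 and 4 of 20 tumor entries. An entry is 1 gene in 1 class. Over all genes of the same classes 4.62, 3.24, 6.86 and 5.6% of entries passed. The members were chosen with earlier results of these data known, and entries repeat the same genes over classes of shared libraries. The member counts and these shares are therefore a description and not a test. The sum of the 6 members in endothelial-like cells was 479, 384 and 477 CPM in kidney and 383, 537 and 475 in tumor, with log2 ratios to the control of -0.32 (-0.47 to -0.17) and -0.01 (-0.10 to 0.09) in kidney and 0.49 (0.35 to 0.63) and 0.31 (0.19 to 0.43) in tumor. At 15 min the sum was below the control in kidney and above it in tumor, a difference that was not tested.

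The pathway lists gave these values in endothelial-like cells at 60 min, for the 3 genes of each list with the largest ratios. Among SRF and actin genes, 3 of 10 in kidney and 2 of 9 in tumor were higher and none lower, where 2.31 and 1.17% of all genes were higher. In kidney Myl9 went from 1 to 65 UMIs, a log2 ratio of 3.94 (1.42 to 9.27), Acta2 from 2 to 52, a ratio of 2.62 (0.70 to 5.71), and Tagln from 8 to 76, a ratio of 1.17 (0.12 to 2.43). In tumor Tagln went from 24 to 325, a ratio of 1.88 (1.28 to 2.54), and Acta2 from 6 to 45, a ratio of 1.02 (-0.21 to 2.54) whose interval includes 0. All 3 are genes of the smooth muscle contractile apparatus. Endothelium makes little of them, and in the same libraries the stromal-like class went from 0.442 to 0.413% of kept kidney cells and the pericyte-like class from 0.314 to 1.29% of kept tumor cells. For every 100 endothelial-like cells there were 4.52 and 1.65 stromal-like cells in kidney and 5.56 and 9.82 pericyte-like cells in tumor. Their part in these values was not tested. Flna, an actin crosslinker, had a log2 ratio of -0.62 (-0.80 to -0.44) in tumor.

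No gene of the YAP, TAZ and TEAD list passed 2-fold. Yap1 itself had a log2 ratio of -0.45 (-0.80 to -0.10) in kidney, Wwtr1, which encodes TAZ, -0.33 (-0.51 to -0.14), and Tead1 -0.27 (-0.56 to 0.03) in kidney and -0.36 (-0.68 to -0.03) in tumor. Tead2 and Tead4 in tumor were -0.26 and -0.23. Of the Hippo kinases and adaptors none of 12 in kidney or 11 in tumor passed, with Nf2 at 0.59, Stk4 at -0.27 and Mob1a at -0.26 in kidney and Stk3 at -0.62, Taok1 at -0.59 and Lats1 at -0.55 in tumor. None of the other YAP target genes passed either, 9 in kidney and 10 in tumor, with medians of -0.01 and 0.05. Rbms3, Gadd45a and Nuak2 stood at -0.87, -0.37 and -0.17 in kidney, and Nt5e, Asap1 and Igfbp3 at 0.44, -0.31 and -0.31 in tumor. Of the CCN and thrombospondin partners none of 5 in kidney or 7 in tumor passed, and they were led by Cd36, a thrombospondin receptor, at 0.66, with Wisp1 at 0.64 and Itgav at 0.13, in kidney and by Thbs2 at 0.86, with Itgb3 at -0.55 and Nov at 0.29, in tumor. Of the stress genes Atf3 stood at -0.60, Gadd45b at -0.51 and Jun at 0.45 in kidney, and Atf3 at 1.03, Jund at 0.70 and Hspd1 at 0.67 in tumor.

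The members differed in how alike their patterns were over classes and libraries, measured by Pearson's r of log2(CPM + 1) over the units of at least 50 cells, which share libraries and are not independent. In kidney Amotl2 paired with Ctgf at 0.88 and with Cyr61 at 0.81, Ctgf with Cyr61 at 0.74, and Lats2 with Cyr61 at -0.02. In tumor Ctgf paired with Cyr61 at 0.89, Amotl2 with Cyr61 at 0.86 and Lats2 with Ankrd1 at -0.34. The genes most like each member in kidney, over 22 units, were Fnbp1l, Ctnnd1 and Trim47 for Cyr61 (0.92 to 0.90), Hipk2, Efna1 and Cmtm8 for Ctgf (0.96 to 0.95), Arhgef12, 0610009O20Rik and Nfib for Amotl2 (0.96 to 0.95), Kcnj10, Mitf and Ston2 for Thbs1 (0.93 to 0.92) and Mapre1, Cldnd1 and 4931406P16Rik for Lats2 (0.93 to 0.92). In tumor, over 19 units, they were Npdc1, Ddah2 and Il17rc for Cyr61 (each 0.97), Shisa4, Cald1 and Nox4 for Ctgf (0.95 to 0.94), Zfp820, Rbfox2 and Grb10 for Amotl2 (each 0.96), Ctsl, Fads3 and Gorasp1 for Thbs1 (0.88 to 0.87) and Gnb4, March2 and Tagln2 for Lats2 (0.89 to 0.86). Those of Ankrd1, which rest on few UMIs, were Rgs5, Col3a1 and Ring1 (0.75 to 0.72) in kidney and 1700088E04Rik, Adgrg2 and Thsd4 (0.94 to 0.93) in tumor.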

How the data were processed

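The authors deposited UMI counts, whole and not normalized, in 1 matrix a tissue, which the submitters' processing notes credit to Cell Ranger 3.1.0 and genome build mm10. The authors' methods state that libraries of a tissue were aggregated with read depth evened out, so part of the depth difference was removed before deposit. Limits on cells followed the study. No doublet caller was run: the gene limit and the marker lead over unrelated classes were the only guards. Counts were summed by library and class and divided by the class's UMIs. Count intervals were exact Poisson, shares exact binomial, and ratios exact conditional binomial. Thinning and Leiden clustering (resolution 0.5, without the members) used fixed seeds. Genes named were the 6 members, up to 3 of each pathway list by size of the 60 min endothelial-like ratio, and the 3 most alike genes. The count and ratio rule was tested on simulated data. Python 3.11.15, NumPy 2.4.6, SciPy 1.17.1 and leidenalg 0.10.2 were used. The members and lists were chosen with earlier results of these data known. Alternatives were other gates, limits, scalings and free RNA. Chosen after seeing the data were leaving out shared barcodes and leaving out clusters whose leading genes hold more markers of another class than of their own.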

Additional observations from a re-analysis of the deposited data

Results flagged for a closer look

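Cyr61 in endothelial-like cells at 15 min moved in opposite directions in the 2 tissues. Its log2 ratio to the control was -1.18 in kidney and 0.56 in tumor, a difference of 1.74, and the counting intervals of both ratios lie on their own side of 0. With 1 library in each condition this difference was not tested. The summed stress response genes moved from 22923 to 10747 CPM in the kidney class and from 12725 to 11173 in the tumor class, and the median UMI count of the class from 4111 to 3767 and from 4544 to 7617.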

How the results depend on the processing

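Intervals cover counting error only, 1 library stood for each condition, and classes of few cells or few UMIs rest on single cells. The sum of the members in endothelial-like cells kept its value within the counting interval under all alternatives for kidney at 15 min. For kidney at 60 min (-0.01) it was -0.10 without upper limits on cells and 0.0948 with cells thinned to 1000 UMIs. For tumor at 15 min (0.49) it was 0.66 when thinned, and for tumor at 60 min (0.31) it was 0.46 when thinned and 0.46 as the mean of single-cell values. The entries past 2-fold over classes went from 4 of 12 to 9 of 18 in kidney at 15 min with a minimum of 20 UMIs, and to 2 of 7 with 200. They went from 6 of 23 to 3 of 12 in kidney at 60 min with 200, and from 6 of 19 to 3 of 12 in tumor at 15 min with 200. In the other cases the number past stayed within 1.5 times. The share of all genes was not computed at 20 or 200, so these counts have no background beside them. Of single ratios, Amotl2 in tumor fibroblast-like cells at 15 min (1.07) turned to -0.18 when thinned, and Thbs1 there at 60 min (-0.70) to 0.30. Without clusters 4 and 7, Ankrd1 in luminal epithelial-like cells turned to -4.36 at 15 min and -3.99 at 60 min. The 10 leading genes of cluster 4 hold 1 basal marker and those of cluster 7 hold 2. Over 10 classes, 28 of 67 ratios left their counting interval when thinned and 14 changed sign, with the largest move, 1.38, in proximal tubule-like Lats2 at 60 min (-0.01 to -1.39). Another 15 of 68 left it without upper limits and 15 as means over cells, and at most 9 under any other alternative. Of 20 ratios past 2-fold, 13 fell under it in at least 1 alternative, and 12 of 52 others passed it in at least 1. The causes were not tested.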
